A study of Mus musculus with 8 samples.

Results

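In skeletal muscle of the mouse, 4622 of the 23187 peaks of the glucocorticoid receptor (GR) lay on chromatin with H3K4me1 but without H3K27ac or H3K4me3 at the peak itself, which was 19.9% of all GR peaks. These H3K4me1-only GR peaks were selected by peak overlap: each shared at least 1 base with an H3K4me1 peak and none with an H3K27ac or H3K4me3 peak, on chromosomes 1 to 19 and X. Their histone marks are therefore a description and carry no test. The peaks were called on chromatin from muscle nuclei of wild-type (genotype WT) mice of the strain C57/Bl6J, aged 10 to 12 weeks by the sample labels and 10 weeks by the series' design text. No treatment is named in the labels, and all 8 libraries share strain, genotype, tissue and age. There was 1 chromatin immunoprecipitation library for each of GR, H3K27ac, RNA polymerase II (Pol2), H3K4me1, CTCF and H3K4me3. The first 4 of these went with Input 1, and the CTCF and H3K4me3 libraries went with Input 2. No antibody was used on a second sample, so the tests below count peaks within single libraries, and no value measures variation between animals.

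GR is a ligand-activated transcription factor of the nuclear receptor family. With hormone it enters the nucleus and binds the glucocorticoid response element (GRE), a pair of inverted half-sites around a short spacer, and in muscle it is known for driving proteolysis and for dampening insulin-stimulated growth and glucose uptake. H3K4me1 is laid down at enhancers in general, whereas H3K27ac is added when an enhancer is active and H3K4me3 marks promoters. Enhancers with H3K4me1 alone are commonly called primed. That name describes a state of the marks, and activity was not measured in these data.

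The sequences at the centre of the GRE-bearing H3K4me1-only peaks are shown first, because the GRE, the receptor's own element, was 30.5 times as frequent in these peaks as in windows 2 kb away. The binding motif of CTCF, which was rarer, had a similar ratio of 30.7. The GRE was searched as GNACANNNTGTNC on both strands, without a mismatch, in a window of 200 bases at the peak midpoint. Each line gives 100 bases of the plus strand of GRCm38 (mm10) from RefSeq, with the GRE in capitals. The first 6 belong to genes listed for their link to glucocorticoid action or to muscle metabolism, each shown by its widest GRE-bearing member within 100 kb of a transcription start site (TSS). They are the first 6 such genes in the order of that list, and Irs2 and Pik3r1, which follow, also had one. The Crispld2 peak was added after its values were seen. The last 3 come from the 5 widest members with a GRE, whose other peaks lay in exons and are not printed.
Fkbp5, chr17:28442376-28442475: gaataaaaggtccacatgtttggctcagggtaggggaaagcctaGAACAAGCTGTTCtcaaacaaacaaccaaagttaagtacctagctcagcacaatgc
Tsc22d3, chrX:140505922-140506021: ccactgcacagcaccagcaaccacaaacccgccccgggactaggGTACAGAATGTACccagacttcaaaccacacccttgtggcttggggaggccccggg
Klf15, chr6:90509265-90509364: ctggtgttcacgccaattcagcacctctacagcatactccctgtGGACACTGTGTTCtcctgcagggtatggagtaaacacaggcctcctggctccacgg
Cebpd, chr16:15958927-15959026: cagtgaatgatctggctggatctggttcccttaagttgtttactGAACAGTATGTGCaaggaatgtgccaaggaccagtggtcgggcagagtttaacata
Glul, chr1:153909741-153909840: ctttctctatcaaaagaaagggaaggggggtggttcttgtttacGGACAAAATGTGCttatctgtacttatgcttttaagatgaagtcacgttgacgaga
Irs1, chr1:82239560-82239659: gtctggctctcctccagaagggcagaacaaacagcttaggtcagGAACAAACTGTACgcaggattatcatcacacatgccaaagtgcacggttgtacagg
Crispld2, chr8:120004489-120004588: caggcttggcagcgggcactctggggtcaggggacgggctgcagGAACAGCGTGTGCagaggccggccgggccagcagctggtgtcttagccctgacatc
Akap13, chr7:75399396-75399495: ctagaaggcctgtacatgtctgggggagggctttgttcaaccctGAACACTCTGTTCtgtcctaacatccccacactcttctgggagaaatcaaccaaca
Mdm1, chr10:118121741-118121840: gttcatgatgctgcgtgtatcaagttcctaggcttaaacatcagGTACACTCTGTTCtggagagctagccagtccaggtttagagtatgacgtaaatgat
Etl4, chr2:20618584-20618683: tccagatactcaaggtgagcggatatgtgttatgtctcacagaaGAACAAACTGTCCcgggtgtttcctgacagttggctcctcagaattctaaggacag

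All 10 matches are different sequences apart from the fixed letters of the GRE. The Fkbp5 peak (239 bases wide) lay 687 bases from a Fkbp5 TSS, inside the gene that encodes the GR co-chaperone FKBP51, and in an H3K4me1 region without H3K27ac or H3K4me3 anywhere. The Tsc22d3 peak lay 37197 bases from a TSS of the gene for GILZ, a leucine zipper protein induced by glucocorticoids. The Klf15 peak lay in an intron of Aldh1l1, 42211 bases from Klf15, a transcription factor of amino acid and glucose metabolism, so the nearest gene was not Klf15. The peak shown for Cebpd, which encodes a C/EBP transcription factor, lay in an intron of Spidr, 71701 bases from the Cebpd TSS. The Glul peak lay 8651 bases from a TSS of the gene for glutamine synthetase and was the 1 peak of these 10 that overlapped Pol2. The Akap13 peak was the 1 peak of these 10 that overlapped CTCF. The Irs1 peak lay in an intron of Irs1, the insulin receptor substrate, 51783 bases from its TSS, and the nearest TSS was that of Gm9747, at 6521 bases. Assigning a peak to a gene by distance does not show that the peak acts on that gene.

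The H3K4me1-only peaks were narrow. Their median width was 170 bases (quartiles 138 and 215), against 222 bases (164 and 302.5) for the 4467 active-enhancer GR peaks, which overlapped H3K4me1 and H3K27ac but not H3K4me3, and 246 bases for the 12338 GR peaks with H3K4me3. They were close in width to the 1572 GR peaks without any of the 3 marks, whose median was 165 bases. The narrowest width in the GR list, 123 bases, was reached by 506 members (10.9%) and by 244 active-enhancer peaks (5.46%). Members stood later in the GR list as the authors ordered it, with a median place of 13491.5 against 10729 for active-enhancer peaks. No source used here says what that order means, and the list holds no score. Introns held 2331 members (50.4%, exact 95% interval 49.0 to 51.9), intergenic DNA 1902 (41.2%), exons 212 (4.59%) and the 1 kb around a TSS 177 (3.83%). The median distance to a protein-coding TSS was 24060.5 bases, against 17916 for active-enhancer peaks and 41198.5 for unmarked peaks.

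The label holds at the peak and only in part for the region around it. H3K4me1 covered the GR peak fully in 4332 members (93.7%) and by under 50% in 149. The members fell in 4191 H3K4me1 regions, of which 3843 held a single member and 2 held 7. Regions with H3K4me1 alone along their whole length held 2413 members (52.2%, exact 95% interval 50.8 to 53.7), regions with an H3K27ac peak elsewhere held 1469 (31.8%), and regions with an H3K4me3 peak elsewhere held 740 (16.01%). An H3K27ac peak lay within 100 bases of 889 members (19.2%) and within 1 kb of 1611 (34.9%), and the median gap was 5608.5 bases. The distances had 2 modes, with few members at about 1 kb. Just inside the selection stood those 889 members, and just outside it stood 267 active-enhancer peaks with under 10% of their bases in H3K27ac, and 105 unmarked peaks within 100 bases of an H3K4me1 peak. With a gap of over 1 kb to any H3K27ac or H3K4me3 peak required, 2962 members remained. When a mark had to cover 50% of the GR peak to count, the class held 6545 peaks.

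**Figure D1:**
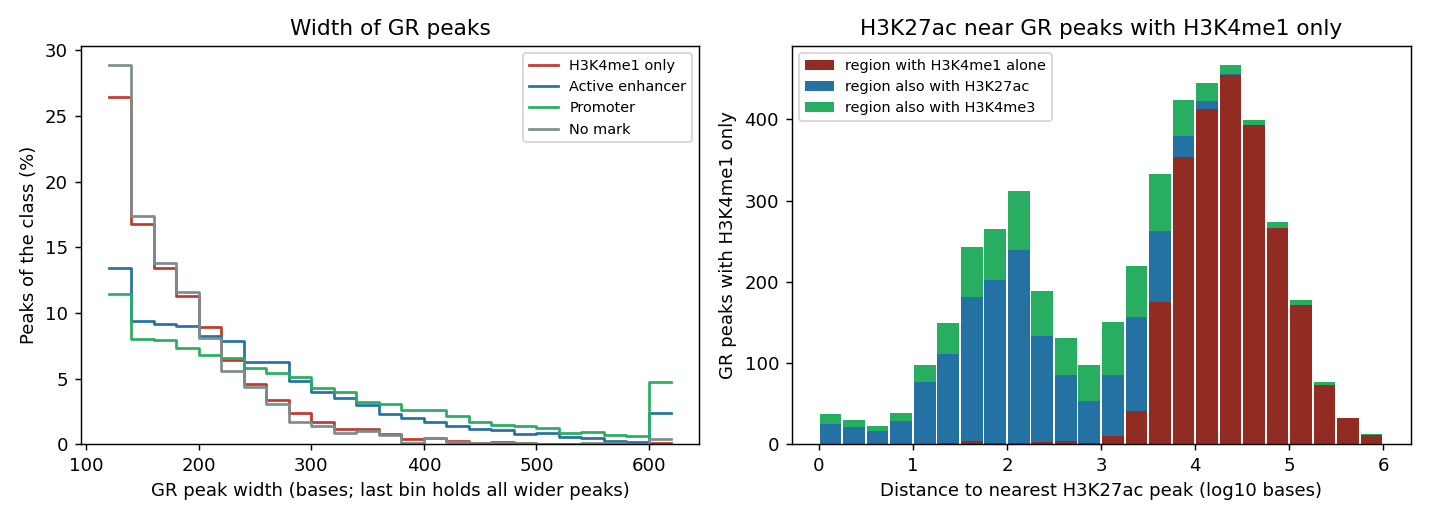
Left, width of GR peaks in bins of 20 bases as the percent of each class, the last bin holding all wider peaks; right, number of H3K4me1-only GR peaks by the log10 distance to the nearest H3K27ac peak, coloured by what else their H3K4me1 region holds. The H3K4me1-only and unmarked classes pile up at the narrowest widths, and the right panel has a peak near 100 bases, almost all in regions that also hold H3K27ac or H3K4me3, and another beyond 10 kb, almost all in regions with H3K4me1 alone.

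Few regions with H3K4me1 alone held GR at all. Of 52855 such regions 2297 (4.35%) held a GR peak, against 3245 of 7262 regions (44.7%) that also held H3K27ac without H3K4me3. The H3K4me1-alone regions with GR had a median width of 2058 bases and those without it 1059 bases, so region width differed along with GR. Among regions that held members, the median width was 4444 bases with H3K27ac and 2069.5 bases with H3K4me1 alone. The contrast between these types of region was not adjusted for width. Within their regions the members sat toward the middle: 2734 (59.2%) lay in the central 50% of the region's length, and 343 (7.42%) in the outermost 10%.

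Pol2 was rare at H3K4me1-only GR peaks. A Pol2 peak overlapped 155 members (3.35%), 1212 active-enhancer peaks (27.1%) and 73 unmarked peaks (4.64%), while the share over all GR peaks was 51.3%. The odds against active-enhancer peaks were 0.0932 times as high (exact 95% interval 0.0779 to 0.111, two-sided Fisher's exact test, adjusted p = 4.91e-243). The odds ratio was 0.163 with classes set by 50% coverage, 0.0443 for members without H3K27ac or H3K4me3 within 1 kb and 0.0513 in the first 50% of the GR list, and passed in each. Against unmarked peaks the odds ratio was 0.713 (0.533 to 0.961, Fisher's exact test, adjusted p = 0.0485), and it did not pass when Pol2 peaks within 1 kb were counted (0.791, adjusted p = 0.107), in the widest 50% of peaks (0.578, adjusted p = 0.0778) or in the first 50% of the GR list (0.937, adjusted p = 0.961). By the same exact test it passed for members without H3K27ac or H3K4me3 within 1 kb (0.338, adjusted p = 5.27e-08), with 1 peak per H3K4me1 region (0.595, adjusted p = 0.00293) and under 50% coverage (0.729, adjusted p = 0.000473). The Pol2 share within members followed the region: it was 1.08% in regions with H3K4me1 alone, 3.61% in regions with H3K27ac elsewhere and 10.3% in regions with H3K4me3 elsewhere. Adjusted p-values here and below are Benjamini-Hochberg values over 36 tests, of which 18 passed at 0.05. Neighbouring peaks share regions and are not independent, so these p-values can be too small.

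The members with Pol2 lay near 119 genes, of which 103 had a single such member. The nearest gene was Tacc2, which encodes a centrosome- and microtubule-associated protein, for 10 of the 155, and Mrpl23 for 7, which all lay in the non-coding transcript Nctc1 next to it. Slco4a1, an organic anion transporter gene, had 4. Tnnt3 (fast troponin T), Atp2a1 (the calcium pump SERCA1), Trim63 (the muscle ubiquitin ligase MuRF1), Glul and Fkbp5 had 3 each, and Ckm (muscle creatine kinase), Pdk4 (pyruvate dehydrogenase kinase), Cdhr3, Klf14, Ppp1r3c, Rasgrp2 and Tns1 had 2 each. Pol2 peaks of at least 1 kb held 44 of the 155 members (28.4%), against 108 of the 1212 active-enhancer peaks with Pol2 (8.91%). Only 4 of the 155 held a GRE (2.58%, exact 95% interval 0.708 to 6.48), against 527 of 4467 members without Pol2 (11.8%). Whether GR signal in these transcribed regions came from GR binding at the site was not tested.

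The GRE was more frequent at H3K4me1-only peaks than at active-enhancer peaks, and most frequent at peaks without a mark. It was present in 531 members (11.5%, exact 95% interval 10.6 to 12.4), 331 active-enhancer peaks (7.41%) and 310 unmarked peaks (19.7%). Over all GR peaks the share was 5.52%, and over 9020 windows of the same length 2 kb to either side of members it was 0.377%. In such windows beside active-enhancer and unmarked peaks it was 0.365% and 0.291%. The odds ratio was 1.62 against active-enhancer peaks (1.40 to 1.88, Fisher's exact test, adjusted p = 1.55e-10) and 0.529 against unmarked peaks (0.452 to 0.618, Fisher's exact test, adjusted p = 1.86e-14). The share was higher in members than in active-enhancer peaks on 20 of 20 chromosomes. Allowing 1 mismatch raised the shares to 38.4%, 30.7% and 49.8%, in the same order. Peak width moves with the marks and with the GRE, and within 10 strata of width the odds ratio against active-enhancer peaks was 2.26. It was lowest, at 1.29, with classes set by 50% coverage (Fisher's exact test, adjusted p = 0.00411), which lay below the main interval. It was 1.46 in windows of 400 bases, 1.53 with 1 GR peak per H3K4me1 region and 1.91 for members without H3K27ac or H3K4me3 within 1 kb, and passed in each. Among members, the share was 13.2% in regions with H3K4me1 alone, 9.53% in regions with H3K27ac elsewhere and 9.73% in regions with H3K4me3 elsewhere.

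**Figure D2:**
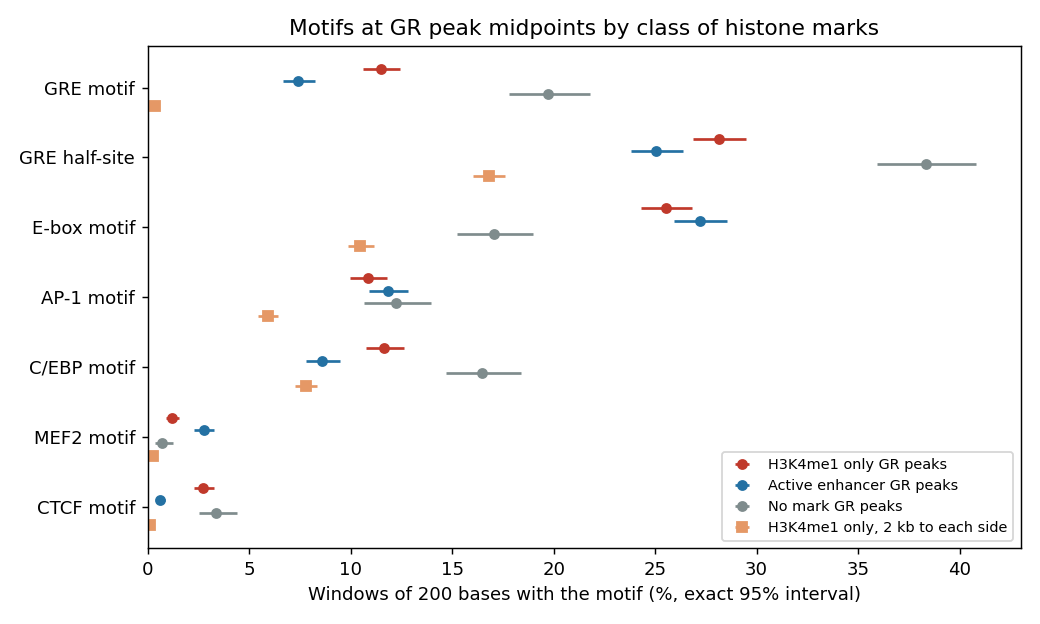
Percent of 200-base windows that hold each motif (points, with exact 95% intervals) at the midpoints of H3K4me1-only, active-enhancer and unmarked GR peaks, and in windows 2 kb to each side of the H3K4me1-only peaks (squares). For the GRE the H3K4me1-only peaks (11.5%) lie between active-enhancer (7.41%) and unmarked peaks (19.7%), while for the E-box they lie beside active-enhancer peaks.

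The matches sat at the peak centres. The 537 GRE matches in members lay a median of 15.5 bases from the midpoint, and 482 (89.8%) lay within 50 bases. They comprised 258 different sequences, of which 133 occurred once. The most frequent one is printed here to show how little any single version contributed, with 12 of the 537 matches.
Most frequent GRE in members: GAACAGCCTGTGC

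Of the half-sites in these matches, read 5′ to 3′ on their own strand, 41.1% were GAACA, 26.4% GGACA, 17.0% GCACA and 15.6% GTACA. The hexamer AGAACA, which can overlap a GRE and did so or stood near one in 253 of the 531 GRE-bearing members, was present in 28.1% of members, 25.1% of active-enhancer peaks and 38.4% of unmarked peaks, against 17.1% of all GR peaks. Its odds ratio against active-enhancer peaks was 1.17 (1.07 to 1.29, Fisher's exact test, adjusted p = 0.00291), which no longer passed with 1 GR peak per H3K4me1 region (1.13, adjusted p = 0.0509).

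**Figure D3:**
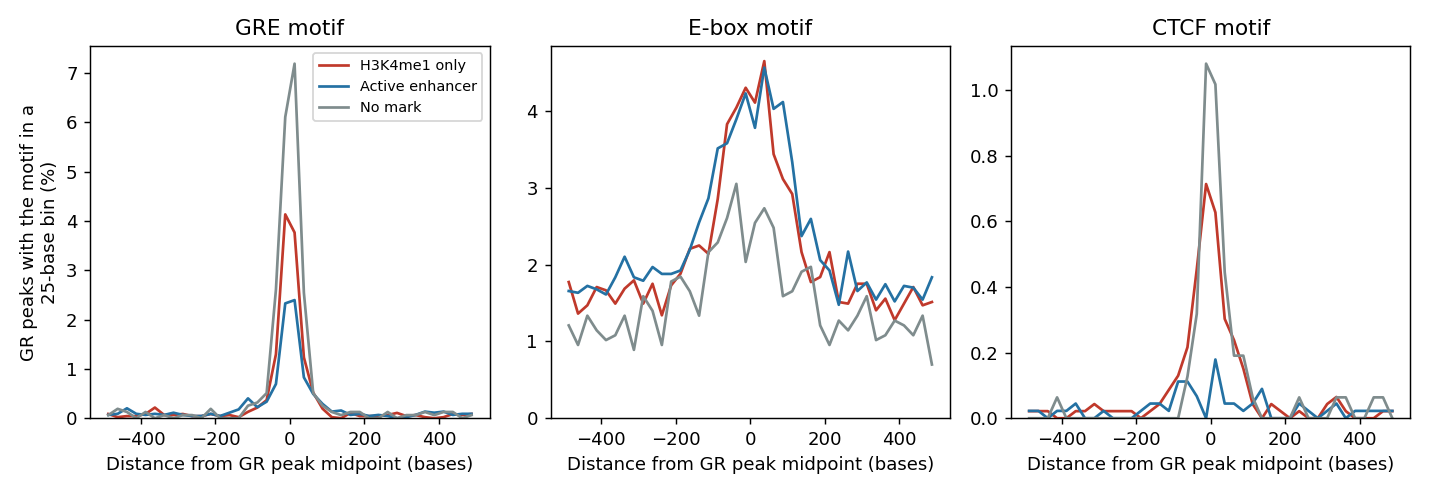
Percent of GR peaks in each class with the GRE, E-box or CTCF motif in each 25-base bin, against the distance in bases from the GR peak midpoint. The GRE forms a narrow peak at the midpoint in all 3 classes and the CTCF motif in H3K4me1-only and unmarked peaks, while the E-box forms a broader one, in which H3K4me1-only and active-enhancer peaks run together and unmarked peaks run lower.

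GREs were most frequent at the top of the GR list. With the list divided into 10 equal stretches, 43.7% (exact 95% interval 39.1 to 48.4) of the 460 members in the first stretch held a GRE, which was 201 of the 531 members with one, falling to 24.1% in the second, 10.96% in the fourth and 2.84% in the last. Of the 199 members among the first 1000 entries, 102 (51.3%) held one. Active-enhancer peaks fell from 29.6% to 1.56% over the same stretches, and members had the higher share in 10 of 10. The median place of members with a GRE was 4235, and that of members without one was 14356. Members were themselves 19.9% of the GR peaks in the first stretch, 14.3% in the second and 24.3% in the last.

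**Figure D4:**
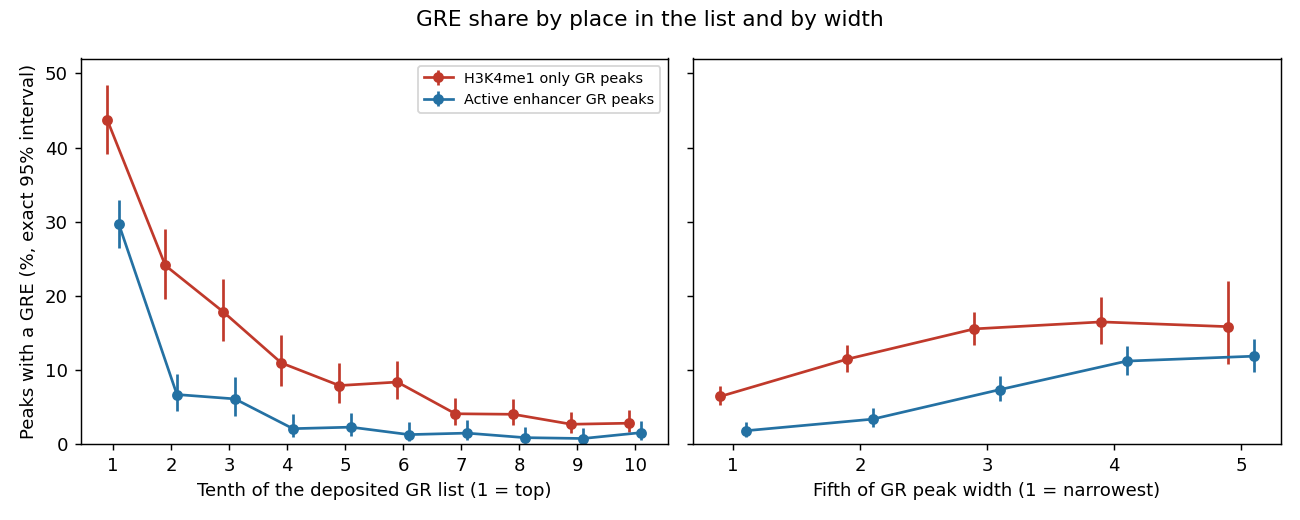
Percent of H3K4me1-only and active-enhancer GR peaks with a GRE (points, with exact 95% intervals) along 10 equal stretches of the deposited GR list and along 5 groups of rising GR peak width. The share falls from 43.7% to 2.84% along the list in H3K4me1-only peaks, and the H3K4me1-only points lie above the active-enhancer points in every stretch and width group.

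Motifs of muscle transcription factors divided the classes differently. The E-box CAGCTG, bound by MyoD and related factors, was present in 1180 members (25.5%), 27.2% of active-enhancer peaks and 17.1% of unmarked peaks. It was present in 18.2% of all GR peaks and in 10.47% of the windows beside members. Members did not pass a difference from active-enhancer peaks (odds ratio 0.917, 0.834 to 1.01, Fisher's exact test, adjusted p = 0.127), and exceeded unmarked peaks (1.67, 1.44 to 1.94, adjusted p = 1.35e-11), though not in the widest 50% of peaks (1.37, adjusted p = 0.0999). By the same exact test the odds ratio against active-enhancer peaks did pass in windows of 400 bases (0.878, adjusted p = 0.00599) and in the first 50% of the list (0.839, adjusted p = 0.0318). Within strata of GC content the E-box odds ratio against unmarked peaks was 1.38. The MEF2 motif, the site of the myocyte enhancer factors, was present in 54 members (1.17%) and 123 active-enhancer peaks (2.75%), against 1.13% of all GR peaks. The MEF2 odds ratio was 0.417 (0.297 to 0.581, Fisher's exact test, adjusted p = 2.11e-07). It was 0.219 in the widest 50% of peaks and 0.622 with classes set by 50% coverage (same exact test, adjusted p = 0.00437), both outside that interval. GRE-bearing members held an E-box in 20.2% of cases and other members in 26.2%.

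AP-1 and C/EBP are families of leucine-zipper factors that often share enhancers with GR. The AP-1 motif TGANTCA was present in 10.9% of members and 11.8% of active-enhancer peaks (7.05% of all GR peaks), a difference that did not pass (odds ratio 0.907, 0.795 to 1.03, Fisher's exact test, adjusted p = 0.198). The C/EBP motif TTGCNNAA was present in 11.6% of members, 8.60% of active-enhancer peaks and 16.5% of unmarked peaks, against 7.52% of all GR peaks. Its odds ratio was 1.40 against active-enhancer peaks (1.22 to 1.61, Fisher's exact test, adjusted p = 5.66e-06) and 0.668 against unmarked peaks (0.567 to 0.788, adjusted p = 5.66e-06). In the first 50% of the list the former was 1.26 and did not pass the exact test (adjusted p = 0.0589). The latter was 0.817 within strata of GC content.

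CTCF, the zinc-finger protein that anchors chromatin loops, overlapped members about as often as GR peaks at large. The members with it rarely held a GRE. A CTCF peak overlapped 323 members (6.99%, exact 95% interval 6.27 to 7.76), 94 active-enhancer peaks (2.10%) and 120 unmarked peaks (7.63%), against 7.09% of all GR peaks. The odds ratio was 3.50 against active-enhancer peaks (2.76 to 4.46, Fisher's exact test, adjusted p = 6.92e-29) and 0.909 against unmarked peaks (0.729 to 1.14, adjusted p = 0.459). The former was 2.12 in the widest 50% of peaks and 2.18 when CTCF peaks within 1 kb were counted, and passed in both. The latter was 0.564 within strata of GC content and passed the exact test under 50% coverage (0.719, adjusted p = 0.00144). The CTCF motif itself was present in 126 members (2.73%), 26 active-enhancer peaks, 53 unmarked peaks (3.37%) and 1.32% of all GR peaks. Its odds ratio against active-enhancer peaks was 4.79 (3.11 to 7.63, Fisher's exact test, adjusted p = 2e-15). That value was 8.32 in windows of 100 bases, 3.64 in windows of 400 bases and 3.93 in the widest 50% of peaks. Against unmarked peaks the motif's odds ratio was 0.803 and did not pass the exact test (adjusted p = 0.238). Of the 323 members with CTCF 24.5% held the CTCF motif and 2 (0.619%) held a GRE, against 1.09% and 12.3% of members without CTCF. The GR midpoint lay a median of 30 bases from the CTCF summit, and within 50 bases in 246 of 323 pairs. The CTCF fold over its input, as the authors deposited it, had a median of 8.40 at members and 7.28 at CTCF peaks with H3K4me1 only and no GR. GR and CTCF were set against different inputs, and whether GR signal there followed CTCF was not tested.

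The pair of members with the highest CTCF fold, 26.9 and 24.6, is shown because neither sequence contains a GRE. Their windows also hold no match to the CTCF consensus without a mismatch, so nothing is in capitals. The first lay 10364 bases from a TSS of Uvrag, in an H3K4me1-alone region, and the second 1552 bases from Arid3a. Both are plus-strand 100-base windows of GRCm38.
Uvrag, chr7:99151455-99151554: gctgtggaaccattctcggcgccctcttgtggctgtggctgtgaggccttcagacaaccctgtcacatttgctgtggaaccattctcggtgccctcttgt
Arid3a, chr10:79925441-79925540: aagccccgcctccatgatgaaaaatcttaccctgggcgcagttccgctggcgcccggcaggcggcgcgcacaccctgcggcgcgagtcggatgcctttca

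The widest member of all, 3900 bases at chr17:39843008-39846907, lay on the ribosomal RNA gene copy Rn18s-rs5, a repeated gene whose copies share reads, so its placement is uncertain. The next, 916 bases, and the ninth, 524 bases, lay in Nctc1 with Pol2. The others, 520 to 751 bases wide, lay outside protein-coding genes, and their nearest TSS, of Bod1, Rplp1, Slc25a33, Fam43a, Tle3, Trib1 or Rtl1, was 46495 to 258887 bases away. The windows of these 10 members held no GRE.

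Near genes, H3K4me1-only peaks mostly came singly. A member lay within 25 kb of a TSS of 2719 of 21670 protein-coding genes (12.5%). Of these genes 2142 (78.8%) had exactly 1 member, 137 had 3 or more, and 885 (32.5%) also had an active-enhancer GR peak. For 467 genes all GR peaks within that distance were H3K4me1-only. Among the 12757 genes with any GR peak, 21.3% had a member.

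Crispld2, a secreted protein gene known to respond to glucocorticoids, had no GR peak of another class. Its 5 members, 128 to 315 bases wide, were its only GR peaks within 25 kb of a TSS and lay in 1 H3K4me1 region of 13898 bases, chr8:119996547-120010444, without H3K27ac or H3K4me3. The widest of them, in an intron, held the GRE printed above and stood at place 372 in the GR list. The member nearest to a TSS, at 176 bases, held none. None of the 5 overlapped Pol2 or CTCF.

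Fkbp5, a textbook GR target, had 7 members among 26 GR peaks, with 9 active-enhancer and 8 H3K4me3 peaks beside them. The 7 were 128 to 277 bases wide and stood from place 466 to place 15068 in the list, and 1 of them held a GRE. Tns1, a focal adhesion gene, had 10 members among 38 GR peaks, and Tacc2 had 10 among 20, all with Pol2 and none with a GRE. Dab2ip, a Ras GTPase-activating protein gene, and Gse1 had 7 each. Abcc8, which encodes the sulphonylurea receptor of potassium channels, and Ccdc6 had 6 each, and Gramd1b had 5. The 5 genes tied at 5 members were ordered by name, and the first of them were taken.

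Among GR target genes, 17 of 28 had a member within 25 kb (60.7%, exact 95% interval 40.6 to 78.5), and 26 had any GR peak. The share with a member was 12.5% over all protein-coding genes and 21.3% over genes with any GR peak. The GR target genes had 36 different members, of which 2 held a GRE, against 531 of all 4622 members (11.5%). That difference was not tested. Tsc22d3 and Cebpb had 4 each, and so did Mt2, a metallothionein gene. Glul had 3, all with Pol2, and Pdk4 and Ddit4, an mTOR inhibitor gene, had 2. Klf15, Sgk1, Zbtb16 and Angptl4 had 1. Per1 and Klf9 had none within 25 kb, although 12 and 4 GR peaks of other classes lay there, and neither had Cebpd.

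Insulin and IGF signalling genes had a member in 12 of 24 cases (50%), with 15 different members. A GR peak of any class lay near 23 of the 24, and among all genes with a GR peak 21.3% had a member. Grb10, an adaptor that restrains the insulin receptor, had 3 of 4 GR peaks in the class, 1 of them only 386 bases from a TSS, and Rptor, the mTORC1 subunit Raptor, had 2 of 3. Akt1 had 1 of 3. Pik3r1, the regulatory subunit of PI3-kinase, had 1 of 7, which held a GRE 3563 bases from a TSS. Irs1, Irs2 and Igf1r had none within 25 kb. Among atrophy and proteolysis genes 5 of 22 had a member (22.7%), and all 22 had a GR peak. That share was near the 21.3% among all genes with a GR peak. Trim63 had 3 of 15, all with Pol2, while Fbxo32, the ubiquitin ligase atrogin-1, and the transcription factor gene Foxo3 had 1 each. Foxo1 had none, and neither had Mstn, the muscle growth inhibitor myostatin.

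Of the muscle structure lists, fast or common sarcomere genes had a member in 13 of 24 cases (54.2%) and slow sarcomere genes in 2 of 12. Atp2a1, Tnnt3 and Ckm had 3 members each, among 29, 20 and 10 GR peaks, while slow Tnni1 had 2 and slow Tnnt1 had 1. The difference between these lists was not tested. Neuromuscular junction genes had a member in 6 of 14 cases, among them Ache (acetylcholinesterase), Chrna1 (an acetylcholine receptor subunit) and Lrp4 (the agrin receptor) with 1 each. For Chrna1 that was the only GR peak. Muscle transcription factors had one in 7 of 18 cases, led by Tead1 with 4 and Sox6, a repressor of slow fibre genes, with 2. Mef2c had 1 of 3 and Myod1 none of 3. Glucose and glycogen genes (9 of 21), with Txnip, Ppp1r3c and Pygm at 2 members each, and fatty acid oxidation genes (9 of 24), with Ppard at 3 and Ppara at 2, stood above the share of all genes. These lists also had GR peaks of any class more often than all genes did, at 21 of 21 and 24 of 24 against 58.9%. So did fast or common sarcomere (23 of 24), slow sarcomere (9 of 12), neuromuscular junction (13 of 14) and muscle transcription factor genes (17 of 18). Among all genes with a GR peak, 21.3% had a member, against 12.5% of all protein-coding genes.

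**Figure D5:**
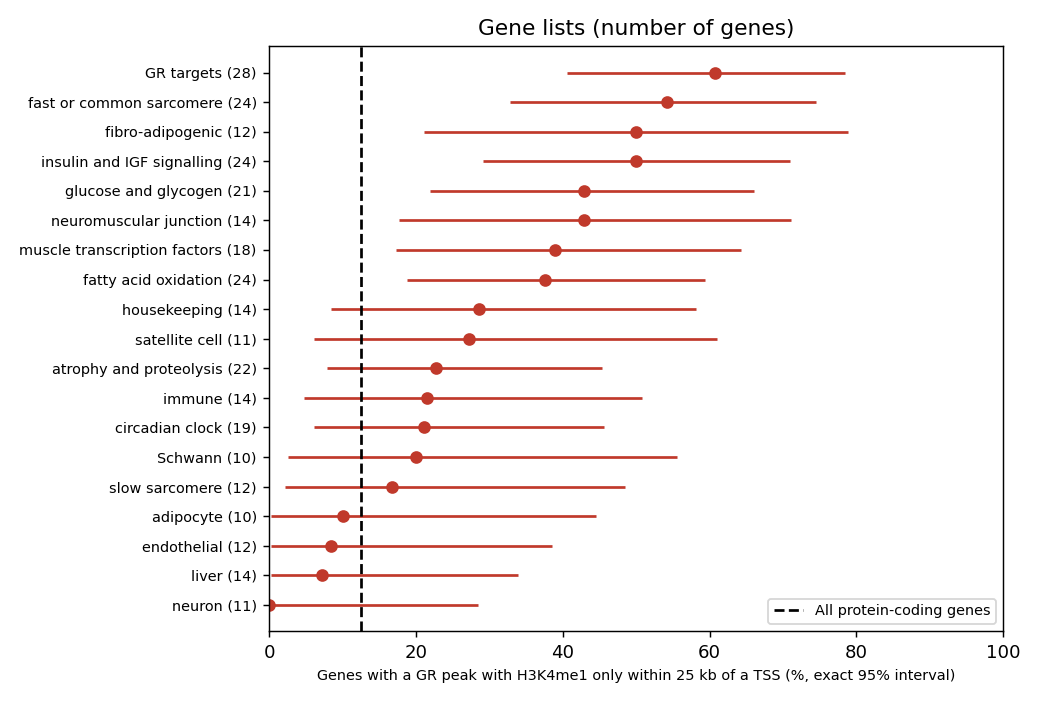
Percent of the genes of each list with an H3K4me1-only GR peak within 25 kb of a TSS (points, with exact 95% intervals and the number of genes in brackets), beside the share of all protein-coding genes (dashed line, 12.5%). GR targets (60.7%) and fast or common sarcomere genes (54.2%) lie highest, and neuron genes (0 of 11) lowest.

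Some genes of other cells in muscle also had such peaks, but mostly not clearly more often than the 12.5% of all protein-coding genes. Fibro-adipogenic genes had a member in 6 of 12 cases (50%, exact interval 21.1 to 78.9), with Col1a1, Cd34 and Gsn at 2 each. Satellite cell genes had one in 3 of 11 (27.3%), with Heyl at 2, and immune genes in 3 of 14 (21.4%). Schwann cell genes had one in 2 of 10 (20%), with Pmp22 at 4, and endothelial genes in 1 of 12 (8.33%). The exact intervals of the satellite cell, immune, Schwann cell and endothelial lists all included 12.5%. As a check of the tissue, 7 of 7 muscle fibre markers had both a Pol2 and an H3K4me3 peak within 1 kb of a TSS. H3K4me3 was also at 3 of 3 endothelial, 2 of 2 fibro-adipogenic and 1 of 2 satellite cell markers, so that mark did not set muscle fibres apart from those cells. It was at none of the 2 immune markers or the liver marker. Pol2 was also at 1 of 3 endothelial, 2 of 2 fibro-adipogenic and 1 of 2 immune markers, and at none of the 2 satellite cell markers or the liver marker. The nuclei came from muscle tissue with several cell types, so which cells held GR at a given H3K4me1-only peak was not tested.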

How the data were processed

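The deposited values are peak positions in bases for GR, H3K27ac, Pol2, H3K4me1, CTCF and H3K4me3. For CTCF and H3K4me3 the authors also deposited a summit and, per peak, the fold (ratio) over its control. Per the submitters' processing notes, bcl2fastq 2.17.1.14, Bowtie 1.0.0, MACS2 and the build mm10 were used. No source used here gives peak thresholds, read filters or library depth, so depth is unknown, and an absent mark means that no peak was called. Per the labels' protocols, each library started from 10 ng and went through 7 cycles of PCR. No molecular identifiers are named, so reads need not be separate molecules, and intervals cover counting error only.

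Overlap meant 1 shared base. The 8 GR peaks on the mitochondrial genome and 1 on chromosome Y were left out. Genes and TSS came from GENCODE annotation and sequence from RefSeq, both of GRCm38. The 16 motifs were searched on both strands in windows of 200 bases, without mismatches, with windows 2 kb to each side that met no GR peak as background. MEF2, SRF and CTCF motifs were degenerate consensus sequences. Odds ratios have conditional exact 95% intervals and two-sided Fisher's exact tests, adjusted over 36 tests by Benjamini-Hochberg. Shares have exact Clopper-Pearson intervals. Tools were Python 3.11.15, numpy 2.4.6, scipy 1.17.1 and matplotlib 3.10.9, and overlap, motif search and tests were tested on simulated data.

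The members, motifs and 19 gene lists were chosen with earlier results of these data known, and the lists carry no test. Genes named are 24 listed genes, the nearest gene of the 10 widest members, the 10 genes with most members within 25 kb, and up to 3 genes with most members in each list. Others were chosen after their values were seen, among them the Crispld2 sequence and some genes nearest to members with Pol2. Alternatives were 50% coverage, 1 peak per H3K4me1 region, 1 kb gaps, other motif windows, mismatches and TSS distances, and the widest 50% of peaks. After seeing the data, these were added: the first 50% of the list, peaks without CTCF, and strata of GC content (5 percentage points) or width.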

Additional observations from a re-analysis of the deposited data

How the results depend on the processing

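Of 141 values under alternative settings, 115 kept their direction and their side of the threshold, or moved by less than their interval. Counts have no interval, and those under 50% coverage are among the 115 although they rose. The number of H3K4me1-only GR peaks, 4622, rose to 6545 under 50% coverage. With 1 GR peak per H3K4me1 region there were 4191 such peaks, and 2962 with no H3K27ac or H3K4me3 peak within 1 kb. Their median width minus that of active-enhancer peaks, -52 bases, was -39 under 50% coverage, -69 with 1 GR peak per H3K4me1 region and -53 without marks within 1 kb. Genes with a member numbered 712 at 5 kb and 7417 at 100 kb from a TSS. Within strata of width the odds ratio against active-enhancer peaks was 2.26 for the GRE and 0.119 for Pol2, and within strata of GC content the GRE odds ratio against unmarked peaks was 0.657. Direction turned in values that passed no threshold before or after: AP-1 against active-enhancer peaks under 50% coverage (1.03), the E-box against them in windows of 100 bases (1.04), and CTCF overlap against unmarked peaks in the widest 50% (2.02), with peaks within 1 kb (1.02) and in the first 50% of the list (1.06). The causes were not tested. No paired analysis was possible because each antibody had 1 library. Depth is unknown, and the lack of a mark is the lack of a called peak.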

Other observations

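A further 3 motifs differed between H3K4me1-only and active-enhancer GR peaks. The SRF site, read by serum response factor at muscle structural genes, was present in 29 members (0.627%) and 51 active-enhancer peaks (1.14%), with an odds ratio of 0.547 (0.333 to 0.881, Fisher's exact test, adjusted p = 0.0229), and in 0.931% of the windows beside members and 0.768% of all GR peaks. The TEAD motif CATTCC, bound by effectors of Hippo signalling, was present in 14.4% against 12.7%, and in 10.2% of all GR peaks (odds ratio against active-enhancer peaks 1.16, 1.03 to 1.31, exact test, adjusted p = 0.0328). The motif of KLF and SP factors, CCNCNCCC, was present in 25.2% against 28.0%, and in 45.7% of all GR peaks (odds ratio 0.867, 0.789 to 0.953, exact test, adjusted p = 0.00832). Differences in FOXO (2.92% against 3.72%, adjusted p = 0.0661), STAT (7.51% against 6.58%, adjusted p = 0.146) and RUNX (14.5% against 13.3%, adjusted p = 0.177) did not pass the exact test, and the shares of all GR peaks were 2.51%, 5.24% and 9.74%. In the windows beside members the shares were 2.48%, 5.90% and 15.4%, so RUNX was not more frequent in members than beside them. Against unmarked peaks the FOXO motif GTAAACA was less frequent in members (0.676, 0.498 to 0.925, Fisher's exact test, adjusted p = 0.0301) and the MEF3 motif TCAGGTT was more frequent (1.67, 1.15 to 2.47, adjusted p = 0.0122). MEF3 was present in 3.765% of members, 2.29% of unmarked peaks, 2.62% of all GR peaks and 3.37% of the windows beside members. Its difference from active-enhancer peaks (4.365%) did not pass the exact test (odds ratio 0.857, adjusted p = 0.198).

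By chromosome, members made up 15.8% of GR peaks on chromosome 19 and 23.8% on chromosome 16. The Pol2 share of members was lower than that of active-enhancer peaks on 20 of 20 chromosomes and highest on chromosome 7, at 10.6%, where Tacc2, Nctc1, Tnnt3, Atp2a1 and Ckm lie. The CTCF share was higher in members on 19 of 20 chromosomes. On chromosome X, with 46 members, 21.7% held a GRE and none overlapped CTCF. Of the active-enhancer peaks there, 13.3% held a GRE and none overlapped CTCF either.

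Circadian clock genes had a member in 4 of 19 cases (21.05%), and all 19 had a GR peak. That was near the 21.3% among all genes with a GR peak. Housekeeping genes had a member in 4 of 14 cases, adipocyte genes in 1 of 10 and liver genes in 1 of 14, beside 12.5% of all protein-coding genes. A GR peak of any class lay near all 14 housekeeping genes, 6 adipocyte genes and 3 liver genes. Neuron genes had none in 11, and 4 of them had a GR peak of another class. In the first of these lists Nfil3, a transcription factor gene of the clock's output, had 1 member among 11 GR peaks, and that member held a GRE.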
